A study of Mus musculus with 31 samples.

Results

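The 40S small subunit of the cytosolic ribosome is built from 1 ribosomal RNA and a fixed set of proteins, most of which carry names that begin with RPS. The protein-coding mouse genes named Rps with a number, together with Rpsa, were taken from both count tables after each Entrez identifier was matched to its symbol, and the Rps6k kinases were left out. This gave 32 genes of 24594 in the tables: 31 genes of standard small subunit proteins and Rps27l, a paralogue of Rps27. Fau and Rack1, whose products complete the 33 standard proteins, do not carry the name and are described as neighbours. By place in the subunit, 14 of the 32 genes encode proteins of the head and 17 encode proteins of the body and platform. The genes lie on 13 chromosomes, with 9 on chromosome 7 and 4 on chromosome 17.

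Counts of ribosome-protected fragments (RPFs, the stretches of mRNA shielded by ribosomes from nuclease) and of total RNA were compared in mouse skin squamous cell carcinoma (SCC) keratinocytes. All cells carry HRasG12V and a TgfbrII locus that the labels give as floxed and the study's methods as deleted. In all of them Eif2s1, the gene of eIF2α, was removed with CRISPR-Cas9 and replaced by a lentiviral, PGK-driven, Myc-tagged copy. S51 cells received the wild-type copy and are competent for the integrated stress response (ISR), whereas S51A cells received a copy with alanine in place of serine 51, which stress kinases cannot phosphorylate (ISR-null). Both genotypes were grown from single-cell clones, and the sources used here do not say which clone gave which library, so genotype and clone cannot be told apart. Cells received vehicle (DMSO) or 100 nM of the proteasome inhibitor bortezomib, for 4.5 h by the labels and 4 h by a figure legend of the study. S51 vehicle gave 3 RPF libraries and the other groups 4 each, every group gave 4 of total RNA, and the libraries numbered 31 in all. Replicates are described in the study both as technical and as independent biological ones, so p-values measure the spread between these libraries, which may be technical.

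Phosphorylation of eIF2α at serine 51 lowers the supply of initiator tRNA to ribosomes and slows initiation on most mRNAs. Messages for ribosomal proteins are also known for a terminal oligopyrimidine (TOP) tract, a C followed by further C and T bases at the transcript's first position, through which mTORC1 controls their translation. Both routes lower ribosome loading without loss of the mRNA, which is why footprints and total RNA are given here side by side.

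RPF libraries held 1038826 to 4902237 counts and total RNA libraries 18758668 to 22994713. Eif2s1, the targeted gene, had 279 to 314 CPM (counts scaled to a common library total) in all 16 total RNA libraries. Its RPF level was 162, 81.2 and 171 CPM in S51 vehicle and 213 to 259.8 CPM in S51A vehicle, where it was higher in RPF (log2 fold change 0.73, adjusted p = 0.0023) and in TE (0.79, adjusted p = 0.02). Both fold changes include replicate 2 of S51 vehicle, at 81.2 CPM the lowest of its group and described below. Counts per gene cannot show the changed codon of Eif2s1. Of 10 keratinocyte markers, 1 was lower (16% of all genes tested) and 3 were higher (14.8%) with bortezomib in S51 RPF. In S51A RPF 2 were lower (11.4%) and 2 higher (9.25%). All 10 were higher in S51A than in S51 vehicle total RNA (31.4%). Krt5, a basal keratin, had 11765 to 18108 CPM in RPF. In S51 cells the RPF log2 fold changes of the 10 markers ran from -1.33 for Trp63, a transcription factor of basal keratinocytes, to 0.70 for Dsp. In S51A cells they ran from -1.04 for Trp63 to 0.28 for Krt5. The part of these differences in the results was not tested. The 6 fibroblast, 4 immune and 3 endothelial markers examined summed to at most 6.94, 10.2 and 4.88 CPM in any total RNA library. In any RPF library they summed to at most 9.67, 20.3 and 8.61 CPM. In total RNA the immune sum lay at 3.47 to 4.50 CPM in S51 vehicle, 5.27 to 5.97 in S51 bortezomib, 6.97 to 8.13 in S51A vehicle and 8.43 to 10.2 in S51A bortezomib. In RPF it lay at 7.44 to 16.9 CPM in S51 vehicle, 7.28 to 15.3 in S51 bortezomib, 8.92 to 16.4 in S51A vehicle and 16.8 to 20.3 in S51A bortezomib. The part of the immune sum in the results was not tested.

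One library stood apart. In replicate 2 of S51 vehicle, RPF CPM of the small subunit genes relative to the mean of replicates 1 and 3 ran from 0.147 for Rps27 to 1.53 for Rps26, and this replicate was the lowest of the 3 for 20 genes and the highest for 10. Without Rps27, the ratio in replicate 2 ran from 0.342 for Rps23 to 1.53. In the libraries of the other groups the ratio of 1 library to the rest of its group, also without Rps27, stayed between 0.724 and 1.46. Rps27 varied in other groups too, with 30.9 CPM in replicate 1 of S51A bortezomib and 12.2 to 13.5 in the others of that group. The ratio in replicate 2 rose with the GC content of the coding sequence (Spearman's rho 0.81, Pearson's r 0.70, over 32 genes that share the library). The main counts and the S51 RPF fold changes of the genes described library by library are therefore also given without it, and other values are with all libraries unless stated. CPM and fold changes are relative to all footprints of a library, so a change shared by all footprints does not show, and in bulk samples fewer cells and less RNA per cell cannot be told apart.

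Several of these genes begin with the tract itself. Of the 32 genes, 24 have an entry in the table of promoter windows drawn from RefSeq on GRCm38.p6. In 6 of the 24 (25%), Rps6, Rps10, Rps15a, Rps18, Rps21 and Rps27, an annotated start was a C, and it and the bases after it made up at least 5 C or T bases in a row on the sense strand, against 813 of 27025 genes (3.01%) in the same table. A run of at least 5 that began within 15 bases on either side of an annotated start was present for 19 of the 24 (79.2%) and for 15232 of the 27025 genes (56.4%). The windows below hold 10 bases before the annotated start and 20 from it, and capitals mark the longest run of C and T. Rps6, Rps10, Rps18 and Rps27 are shown because the run covers an annotated start at a C, Rps24 because its run covers an annotated start at a T, and Rps27l because it was the 1 gene not lower in S51 footprints with bortezomib.
Rps6, chr4:86857348-86857377, minus strand: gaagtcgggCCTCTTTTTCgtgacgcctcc
Rps10, chr17:27635225-27635254, minus strand: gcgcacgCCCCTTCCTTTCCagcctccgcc
Rps18, chr17:33955646-33955675, minus strand: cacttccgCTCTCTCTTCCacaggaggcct
Rps27, chr3:90213629-90213658, minus strand: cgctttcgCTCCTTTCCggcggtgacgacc
Rps24, chr14:24490668-24490697, plus strand: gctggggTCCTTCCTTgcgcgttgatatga
Rps27l, chr9:66946076-66946105, plus strand: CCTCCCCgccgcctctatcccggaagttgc
In Rps27l the run of 9 bases starts 12 bases before the annotated start, so the window shows its end only. A run of these letters is a description of the annotated window and not a measured transcript start.

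As a share of all counts, the 32 genes took 4.70, 4.52 and 4.80% of the footprints in the 3 S51 vehicle libraries and 2.35, 2.14, 2.01 and 2.13% in the 4 S51 bortezomib libraries. In S51A cells the shares were 4.65, 4.45, 4.50 and 4.40% with vehicle and 3.37, 2.96, 3.06 and 2.93% with bortezomib. The mean share thus stood at 4.67% ± 0.14 (SD, n = 3) and 2.16% ± 0.14 (n = 4) in S51 cells, and the 4 S51A bortezomib libraries lay between the vehicle libraries of both genotypes and the S51 bortezomib libraries, with no overlap. In total RNA the same genes took 4.57, 4.69, 4.68 and 4.57% in S51 vehicle and 4.51, 4.70, 4.35 and 4.61% in S51 bortezomib, which overlapped. Shares were also taken without the 10 genes with most counts in each library. In S51 vehicle total RNA these included 3, 3, 3 and 2 of the 32 genes. In S51 bortezomib they included 1, 1, 0 and 1. The remaining shares, 3.39 to 3.84% with vehicle and 4.33 to 4.68% with bortezomib, thus rest on unlike genes and do not compare the treatments. With all genes, the S51A libraries gave 4.34, 4.37, 4.39 and 4.18% of total RNA with vehicle and 4.78, 4.96, 4.78 and 4.93% with bortezomib. In S51A cells the mRNA share was therefore higher with bortezomib where the footprint share was lower.

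**Figure D1:**
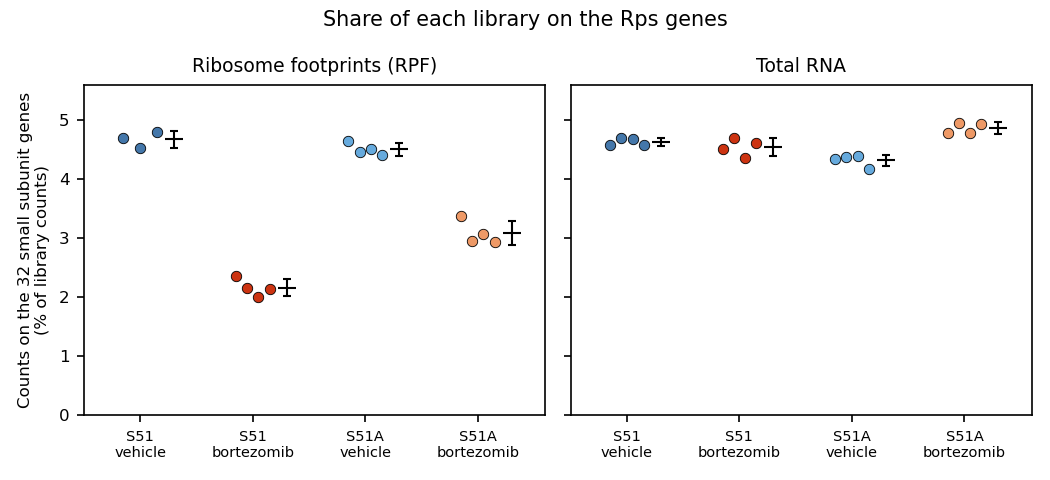
Percent of all counts of each library that fell on the 32 small subunit genes, in RPF (left) and total RNA (right); points are libraries and bars beside them give the mean ± SD. The RPF share fell from 4.52 to 4.80% in S51 vehicle to 2.01 to 2.35% in S51 bortezomib, whereas the total RNA shares of all groups lay between 4.18 and 4.96%.

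In S51 cells, bortezomib lowered the footprints of nearly the whole small subunit. Relative to vehicle, 31 of the 32 genes were lower in RPF by the quasi-likelihood test of edgeR, adjusted over 9457 genes by the Benjamini-Hochberg method, where 16% of all genes tested were lower. The median log2 fold change was -1.11 over the 32 genes and 0.00 over all genes tested. A fold change above 1.5 was also passed by 30 genes (11.2% of all genes). For 26 genes every bortezomib library lay below every vehicle library (16.5%). Without replicate 2 of S51 vehicle, 31 genes were lower (15.1%), with a median of -1.15. All 14 head genes and all 17 body genes were lower, with medians of -1.29 and -1.02.

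Among proteins of the head, Rps19 is needed for maturation of the 3′ end of 18S rRNA and is mutated in Diamond-Blackfan anaemia. Its RPF level was 1435, 1352 and 1439 CPM in S51 vehicle and 497, 436, 401 and 502 CPM in S51 bortezomib. In S51A cells it was 1423, 1337, 1347 and 1232 CPM with vehicle and 980.4, 872, 824 and 810.1 CPM with bortezomib. The S51A bortezomib libraries lay between the S51 bortezomib libraries and all vehicle libraries, without overlap. The log2 fold change was -1.62 in S51 cells (SE 0.09, adjusted p = 1.3e-11, edgeR, and -1.65 without replicate 2 of S51 vehicle) and -0.61 in S51A cells (SE 0.08, adjusted p = 9.5e-06). Rps18, also of the head, stood next to it in S51 cells, with a log2 fold change of -1.62 (-1.67 without that replicate), and had -0.77 in S51A cells.

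Rps10, Rps20 and Rps3, also in the head, are sites at which ubiquitin is attached to stalled or colliding ribosomes. Rps20 had 917, 488 and 969.8 CPM of RPF in S51 vehicle and 287, 293, 238 and 273 in S51 bortezomib. With 958, 935, 881 and 899.7 CPM in S51A vehicle and 508, 468, 513 and 427 in S51A bortezomib, it had the second largest fall of the 32 genes in S51A cells. Its groups did not overlap in either genotype, although replicate 2 of S51 vehicle was low. The log2 fold changes of Rps20 were -1.55 in S51 (SE 0.15, adjusted p = 9.1e-08, and -1.80 without that replicate) and -0.94 in S51A cells (SE 0.14, adjusted p = 3.6e-05).

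Rps10 had 1652, 1941 and 1551 CPM in S51 vehicle against 787, 685, 637 and 740.5 in S51 bortezomib. In S51A cells its levels were 1495, 1437, 1484 and 1389 CPM with vehicle and 967, 922, 975 and 989.6 with bortezomib. Rps3 had 2509.8, 2687 and 2509.7 CPM in S51 vehicle and 1420.0, 1440.5, 1222 and 1312 in S51 bortezomib. Neither gene overlapped between treatments of S51 cells. The fall was larger for Rps10 (log2 fold change -1.27, SE 0.08) than for Rps3 (-0.93, SE 0.07), and both passed the test (adjusted p = 2e-10 and 2.4e-09). Without replicate 2 of S51 vehicle the values were -1.17 and -0.90. The level of Rps3 in S51A cells was 2431, 2308, 2495 and 2191 CPM with vehicle and 1898, 1732, 1786 and 1843 with bortezomib.

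Rps27a, which is made as a fusion with ubiquitin and then cut free, had 1602, 767 and 1702 CPM in S51 vehicle and 799.9, 686, 735 and 769 in S51 bortezomib. Its groups overlapped only through replicate 2 of S51 vehicle. The S51A libraries had 1686, 1564, 1589.9 and 1750.1 CPM with vehicle and 1422, 1037, 1042 and 1037 with bortezomib. The log2 fold change was -0.86 in S51 (SE 0.17, adjusted p = 0.00064, and -1.14 without that replicate) and -0.54 in S51A cells (SE 0.16, adjusted p = 0.019). The S51A call was lost when replicate 4 of S51A vehicle or replicate 2, 3 or 4 of S51A bortezomib was left out (adjusted p = 0.053 to 0.062).

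Among proteins of the body and platform, Rps26 contacts mRNA near the exit channel. Its RPF level was 1412, 2028 and 1233 CPM in S51 vehicle and 590.3, 491, 394 and 487 in S51 bortezomib, with a log2 fold change of -1.67 (SE 0.14, adjusted p = 4.6e-09), and of -1.44 without replicate 2 of S51 vehicle. In S51A cells the levels were 1392, 1257, 1329.65 and 1090.1 CPM with vehicle and 833, 786, 798 and 815 with bortezomib (log2 fold change -0.65, SE 0.12, adjusted p = 0.00063). The treatments did not overlap in either genotype, and replicate 2 was the highest of the S51 vehicle libraries.

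Rps2, a further site of regulatory ubiquitination, had 1502, 1646 and 1589 CPM in S51 vehicle and 651, 604, 589.7 and 654 in S51 bortezomib (log2 fold change -1.34, SE 0.08, adjusted p = 5.5e-11, and -1.31 without replicate 2 of S51 vehicle). The corresponding S51A levels were 1592, 1471, 1512 and 1377 CPM and 1133, 973, 1053 and 928 CPM. Rps6, the substrate of the S6 kinases, had 1773, 1384 and 1913 CPM in S51 vehicle and 869.0, 847, 789.0 and 822 in S51 bortezomib (log2 fold change -1.02, SE 0.09, adjusted p = 2e-08, and -1.15 without that replicate). For both genes all bortezomib libraries of S51 cells lay below all vehicle libraries. In S51A cells Rps6 had 1820.4, 1695, 1740.1 and 1754 CPM with vehicle and 1328, 1136, 1201 and 1098 with bortezomib.

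Rpsa, also known as the laminin receptor precursor, had the smallest S51A change of the genes that passed the test in both genotypes. It had 1898, 2406 and 1844 CPM in S51 vehicle and 916, 872, 789 and 888 in S51 bortezomib (log2 fold change -1.24, SE 0.09, adjusted p = 3.9e-10, and -1.11 without replicate 2 of S51 vehicle). In S51A cells it had 1812, 1812, 1811 and 1679 CPM with vehicle and 1455, 1456, 1563 and 1592 with bortezomib (log2 fold change -0.23, SE 0.08, adjusted p = 0.044). The S51A treatments did not overlap. The S51A call was lost with RLE factors (adjusted p = 0.065), with DESeq2 (adjusted p = 0.075), without a filter on low counts (adjusted p = 0.058), and when any of 9 libraries was left out, namely any S51A library but replicate 4 of the vehicle, or replicate 2 or 4 of S51 bortezomib (adjusted p = 0.053 to 0.15).

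Rps24, a protein of the body, was among the genes with the smallest falls in S51 cells with all libraries. It had 743, 354 and 813 CPM of RPF in S51 vehicle and 427, 375, 387 and 411 CPM in S51 bortezomib, and these overlapped through replicate 2 of S51 vehicle (log2 fold change -0.68, SE 0.17, adjusted p = 0.0049, and -0.96 without that replicate). In S51A cells it did not pass the test, at a log2 fold change of -0.43 (SE 0.16, adjusted p = 0.056). The S51A levels were 763, 791, 698 and 836 CPM with vehicle and 672, 553, 539.9 and 519 CPM with bortezomib, and every bortezomib library lay below every vehicle library. It passed in S51A cells when replicate 2 or 3 of S51 vehicle or replicate 1 of S51A bortezomib was left out (adjusted p = 4.1e-06 to 0.039).

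Rps27 and Rps27l encode near-identical zinc-binding proteins of the body, and stood at opposite ends of the 32 genes. Rps27 was the least covered gene in RPF, with 36.1, 5.3 and 36.1 CPM in S51 vehicle (102, 11 and 145 counts) and 11.6, 5.7, 9.5 and 4.5 CPM in S51 bortezomib (16, 6, 25 and 8 counts). In S51A cells it had 46.7, 27.0, 44.4 and 41.6 CPM with vehicle and 30.9, 12.2, 13.5 and 13.5 with bortezomib. The treatments overlapped in both genotypes, in S51 cells through replicate 2 of the vehicle. The log2 fold change of Rps27 was -1.77 in S51 (SE 0.47, adjusted p = 0.0072) and -1.10 in S51A cells (SE 0.35, adjusted p = 0.027, and 0.097 with DESeq2), and without replicate 2 of S51 vehicle the S51 value was -2.17. The S51A call of Rps27 was lost when replicate 1, 3 or 4 of S51A vehicle or replicate 2, 3 or 4 of S51A bortezomib was left out (adjusted p = 0.064 to 0.089).

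Rps27l had 195, 93.3 and 227 CPM of RPF in S51 vehicle and 212, 227, 238 and 224 CPM in S51 bortezomib. The S51A levels were 132, 140.0, 129.5 and 158 CPM with vehicle and 171, 159, 177 and 156 with bortezomib. Treatments overlapped in both genotypes, and the log2 fold changes were 0.37 in S51 (SE 0.18, adjusted p = 0.11) and 0.24 in S51A cells (SE 0.16, adjusted p = 0.33). Without replicate 3 of S51 vehicle, the S51 value was 0.60 (adjusted p = 0.01). Without replicate 2 the values were 0.09 in S51 and 0.23 in S51A cells, where the latter passed the test (adjusted p = 0.018, with 14.5% of all genes higher). In the comparison of the genotypes under bortezomib, Rps27l was the 1 gene of the 32 that was higher in S51 cells (log2 fold change 0.44, SE 0.16, adjusted p = 0.043, where 14.9% of all genes were higher). That call did not hold in 11 fits with 1 library left out (adjusted p = 0.053 to 0.11), which leaves out each library of both bortezomib groups and replicates 1, 2 and 3 of S51A vehicle, nor with at least 10 counts required in every library (adjusted p = 0.058).

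**Figure D2:**
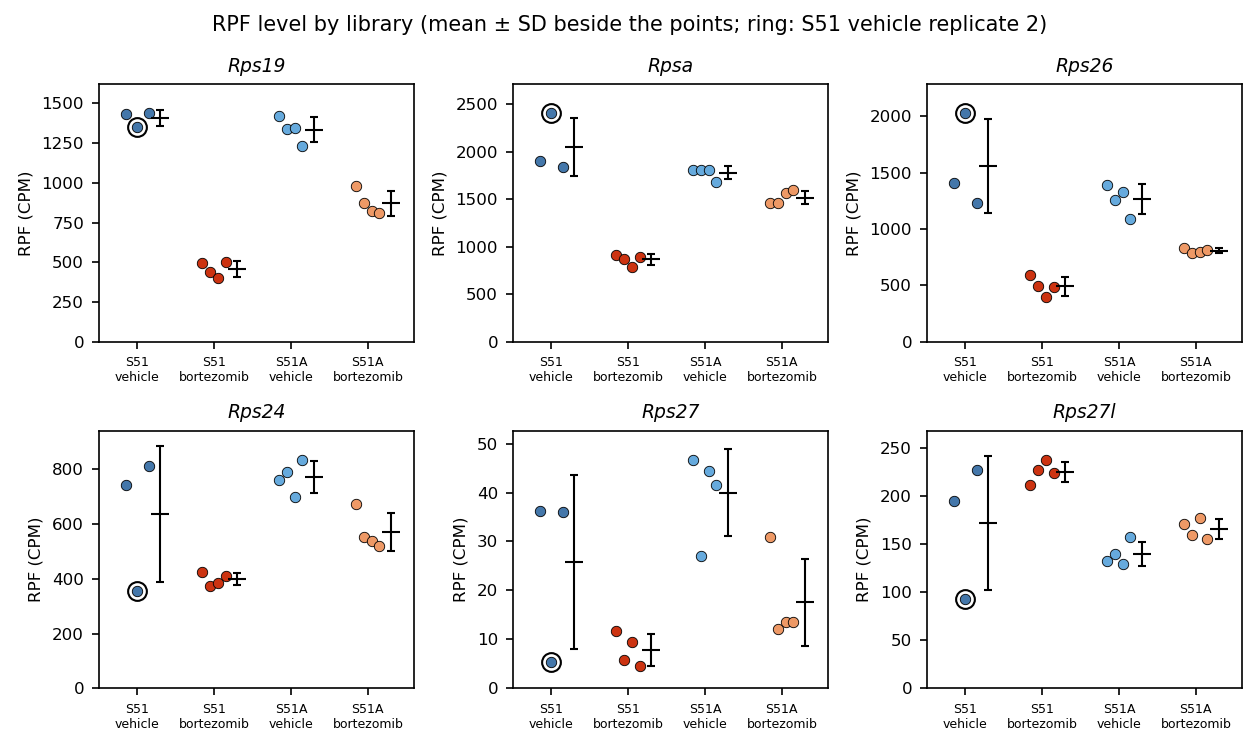
RPF level in CPM of 6 small subunit genes in each library (points), with the mean ± SD beside them; each vertical axis starts at 0 and the ring marks replicate 2 of S51 vehicle. Rps19 and Rpsa have all S51 bortezomib libraries below every other library, replicate 2 is the highest S51 vehicle library for Rps26 and the lowest for Rps24, Rps27 and Rps27l, and Rps27l shows no lower level with bortezomib.

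In ISR-null S51A cells the footprints of the small subunit also fell with bortezomib, by less. By the same test 28 of the 32 genes were lower (11.4% of all genes tested), with a median log2 fold change of -0.53, and 10 passed a fold change of 1.5 (6.67%). For 29 genes every bortezomib library lay below every vehicle library (14.5%). Those that did not pass included Rps23, Rps24 and Rps27l. Leaving out replicate 2 of S51A bortezomib gave 22 lower genes, a count not set beside the share of all genes in that fit. Leaving out replicate 2 of S51 vehicle, which is in neither S51A group, gave 31 (16.1%).

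**Figure D3:**
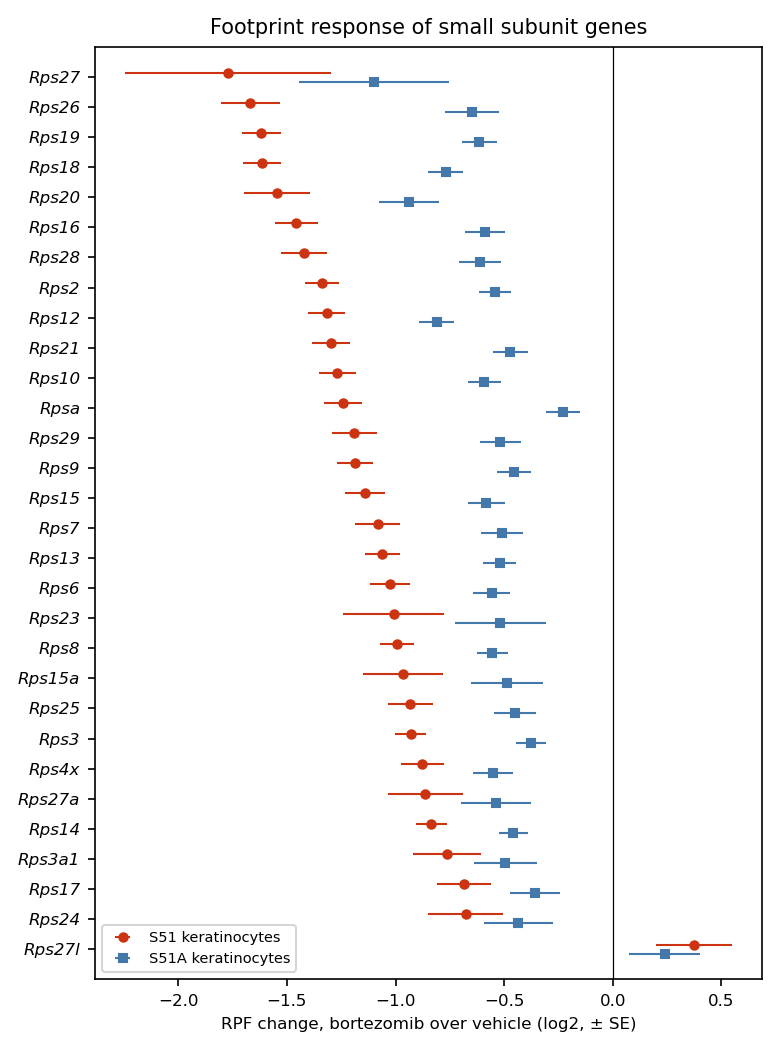
RPF log2 fold change of bortezomib over vehicle for 30 of the 32 genes, ordered by the value in S51 cells; circles are S51, squares are S51A, and bars give the SE. Values run from -1.77 (Rps27) to 0.37 (Rps27l) in S51 cells, and the S51A values of all genes shown are closer to 0 than their S51 values.

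The difference between the responses was tested as an interaction. With all libraries, 19 of the 32 genes had a lower response in S51 than in S51A cells (1.31% of all genes tested) and 12 by more than 1.5-fold (0.983%), with a median difference of -0.56. Without replicate 2 of S51 vehicle the count was 30 (2.48%) with a median of -0.62. Leaving out replicate 3 of S51 bortezomib gave 14, a count not set beside the share of all genes in that fit. With all libraries the lowest values belonged to Rps26 (-1.02, SE 0.18, adjusted p = 0.0029), Rpsa (-1.01, SE 0.12, adjusted p = 4.4e-05) and Rps19 (-1.005, SE 0.12, adjusted p = 4.9e-05). Among the ubiquitination sites, Rps2 (-0.80, adjusted p = 0.00024), Rps10 (-0.68, adjusted p = 0.0015) and Rps3 (-0.55, adjusted p = 0.0029) passed, and Rps20 did not (-0.61, SE 0.21, adjusted p = 0.13). The difference was -0.24 for Rps24 (SE 0.23, adjusted p = 0.65) and 0.13 for Rps27l (SE 0.24, adjusted p = 0.83), and the last became -0.14 without replicate 2 of S51 vehicle. Leaving out that replicate also brought past the test Rps20 (-0.86, adjusted p = 2.4e-07), Rps27a (-0.61, adjusted p = 0.00036), Rps6 (-0.59, adjusted p = 1.5e-05) and Rps24 (-0.53, adjusted p = 0.0015). Rps26 then stood at -0.79, Rpsa at -0.88 and Rps19 at -1.04, and each of them still passed.

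The order of the genes in this difference tracked GC content more closely with that library than without it. Over the 32 genes, the rank correlation of the RPF response difference with GC of the coding sequence was -0.71 with all libraries and -0.21 without replicate 2 of S51 vehicle. For the S51 response it was -0.55 and -0.18, and for the S51A response it was -0.23 with all libraries. The points of each correlation share their libraries. Other RPF libraries also varied with GC against the rest of their group, with a rho of -0.87 in replicate 4 of S51A vehicle and -0.67 in replicate 3 of S51 bortezomib, and the part of GC in the results was not tested.

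**Figure D4:**
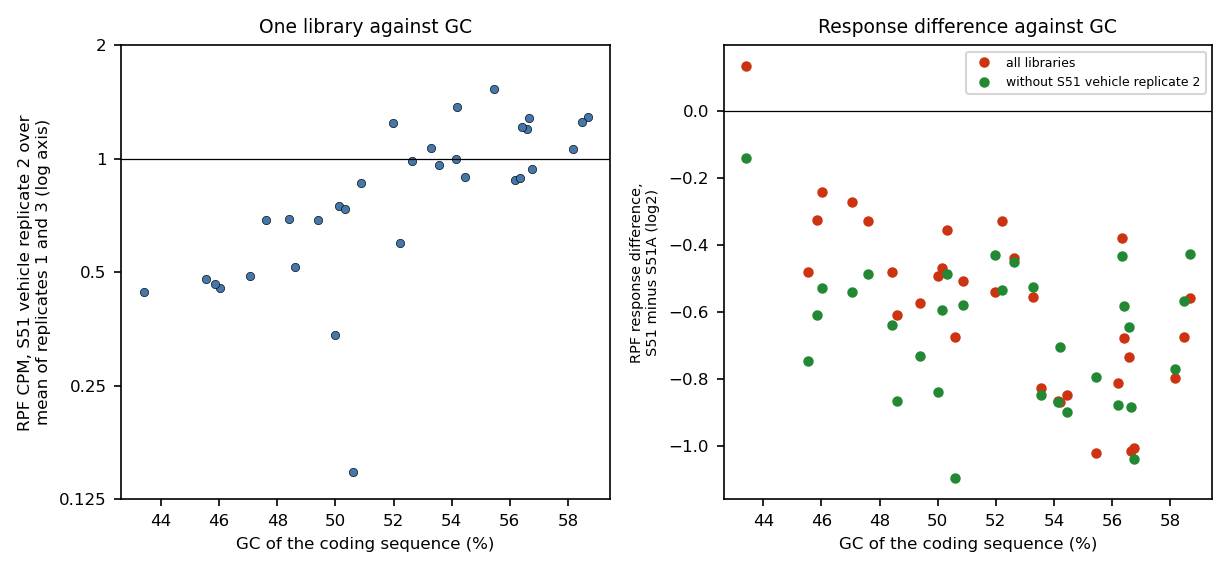
Left, RPF CPM of the 32 genes in S51 vehicle replicate 2 over the mean of replicates 1 and 3 (log axis) against GC of the coding sequence in percent; right, the RPF response difference, S51 minus S51A (log2), with all libraries and without that replicate. The left panel has a rho of 0.81, and the right panel has a rho of -0.71 with all libraries and -0.21 without the replicate.

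In vehicle few small subunit genes differed between the genotypes in footprints. In RPF, 2 of the 32 genes were lower in S51A than in S51 cells (13.8% of all genes), namely Rps10 (log2 fold change -0.24, adjusted p = 0.034) and Rps25 (-0.29, adjusted p = 0.041), and 0 were higher (14.8%) by edgeR's quasi-likelihood test. At an unadjusted p under 0.05 in that test, 5 were lower and 0 higher. The median was 0.00. Without replicate 2 of S51 vehicle the count was again 2 (13.5%), but the genes were Rps27l (-0.59) and Rps25 (-0.44). Under bortezomib, 29 genes were lower in S51 than in S51A cells (16.6%), 16 by more than 1.5-fold (10%), with a median of -0.62. Without that replicate 31 were lower (20.7%). These comparisons share their libraries with those of the responses.

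Total RNA of the small subunit genes rose under TMM scaling, in S51 cells for some and in S51A cells for all. In S51 cells 22 of the 32 were higher with bortezomib (29.7% of 11708 genes tested), with a median log2 fold change of 0.13 and a highest of 0.28. Scaling by library size without TMM factors lowered the median of all genes by 0.16, and the median of the 32 genes was -0.03. In that setting 5 of the 32 were higher and 10 lower. These counts carry the shift of all genes and were not set beside the share of all genes called. In S51A cells 32 were higher (27.5%) with a median of 0.29, and 24 genes had a smaller rise in S51 than in S51A cells (9.58%), with a median difference of -0.17. Relative to the median of all genes, the medians of the 32 genes were 0.14 in S51 and 0.31 in S51A cells under TMM.

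The largest rises in S51 total RNA belonged to Rps4x, the X-linked gene of a body protein, and Rps6. Rps4x had 1673, 1806, 1782 and 1797 CPM in S51 vehicle and 2093, 2218, 2104 and 2161 in S51 bortezomib (log2 fold change 0.28, SE 0.03, adjusted p = 4.4e-08). Rps6 had 2055, 2174, 2152 and 2149 CPM against 2521, 2637, 2475 and 2523 (log2 fold change 0.25, adjusted p = 1.4e-07). For both genes the treatments did not overlap, while their RPF fell. At the other end were Rps12, a head protein gene with log2 fold change -0.02 (SE 0.03, adjusted p = 0.55), and Rps29, which encodes a zinc-binding head protein (-0.01, adjusted p = 0.83). Rps12 has the most named pseudogenes of the set, 23 of 118.

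Between the genotypes in vehicle, total RNA of 22 genes was lower in S51A cells (32.4% of all genes), with a median of -0.13. Rps27l stood out, with 268, 291, 288 and 302 CPM in S51 vehicle and 179.6, 169, 182 and 180.0 in S51A vehicle (log2 fold change -0.69, SE 0.04, adjusted p = 1.2e-13). Rps25, a head protein gene, followed at -0.43 (SE 0.03, adjusted p = 2.1e-11). For Rps27l the groups did not overlap. With bortezomib it had 290.1, 301, 275 and 292 CPM in S51 and 208, 221, 211 and 221 CPM in S51A cells. Under bortezomib 13 of the 32 genes were lower in S51 than in S51A cells (33.3%) and 2 were higher (32.4%).

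Translational efficiency (TE), the ratio of RPF to total RNA, set both measures against each other in 1 model over all 31 libraries. In S51 cells TE fell for 31 of the 32 genes (7.27% of 9424 genes tested), for all 31 by more than 1.5-fold (4.24%), with a median log2 change of -1.22. Without replicate 2 of S51 vehicle it also fell for 31 (6.96%), with a median of -1.33. In S51A cells it fell for 30 (1.24%), for 28 by more than 1.5-fold (0.902%), with a median of -0.83, and Rps23 and Rps27l did not pass. The response difference in TE was lower in S51 cells for 12 genes (1.5%) with a median of -0.41, and without replicate 2 of S51 vehicle for 21 (2.46%) with a median of -0.48. Under bortezomib, TE was lower in S51 than in S51A cells for 25 genes (5.09%), with a median of -0.53, and without replicate 2 of S51 vehicle for 31 (7.4%). In vehicle 0 genes differed in TE by edgeR's quasi-likelihood test (0.0318% of all genes lower and 0.0743% higher in S51A), with 6 higher and 0 lower at an unadjusted p under 0.05, and 0 by DESeq2 and 0 by limma voom.

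Taken lysate by lysate, the ratio of RPF to total RNA CPM for Rps19 was 1.87, 1.73 and 1.86 in S51 vehicle and 0.573, 0.490, 0.481 and 0.567 in S51 bortezomib. In S51A cells it was 1.97, 1.78, 1.78 and 1.83 with vehicle and 1.10, 0.904, 0.886 and 0.877 with bortezomib. The log2 change in TE of Rps19 was -1.81 in S51 (SE 0.09, adjusted p = 9.3e-17, and -1.84 without replicate 2 of S51 vehicle) and -0.97 in S51A cells (adjusted p = 6.7e-10). Rpsa had ratios of 0.486, 0.605 and 0.466 in S51 vehicle, 0.218, 0.194, 0.193 and 0.206 in S51 bortezomib, 0.483, 0.471, 0.478 and 0.483 in S51A vehicle, and 0.343, 0.326, 0.381 and 0.369 in S51A bortezomib. Its TE difference between the responses, -0.94 (SE 0.12, adjusted p = 1.7e-05), was the lowest of the 32 genes with all libraries. The ratios of both genes kept the order of the groups seen in RPF without overlap between treatments.

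For Rps27 the ratio was 0.946, 0.145 and 0.913 in S51 vehicle and 0.318, 0.128, 0.257 and 0.108 in S51 bortezomib. The log2 change in TE of Rps27 was -1.88 in S51 (SE 0.43, adjusted p = 0.003, and -2.23 without replicate 2 of the vehicle) and -1.28 in S51A cells (SE 0.30, adjusted p = 0.014), and the latter did not pass with the lysate as a block (-1.35, adjusted p = 0.056), with DESeq2 (adjusted p = 0.077), or without the RPF library of replicate 4 of S51A vehicle or of replicate 2, 3 or 4 of S51A bortezomib (adjusted p = 0.05 to 0.081). The S51 value did not pass with limma voom (adjusted p = 0.072). For Rps27l the ratio was 0.727, 0.321 and 0.787 in S51 vehicle and 0.730, 0.752, 0.866 and 0.767 in S51 bortezomib, so the groups overlapped. Its log2 change in TE was 0.34 in S51 (SE 0.17, adjusted p = 0.22, and 0.58 with adjusted p = 0.01 without replicate 3 of S51 vehicle, and 0.08 without replicate 2) and -0.04 in S51A cells (SE 0.16, adjusted p = 1).

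**Figure D5:**
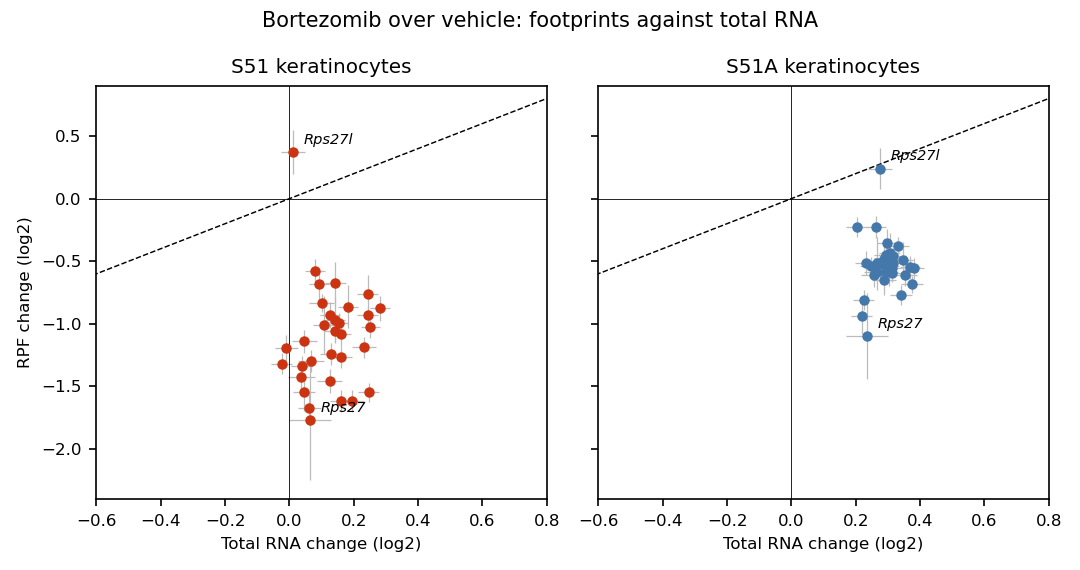
RPF log2 fold change against total RNA log2 fold change, bortezomib over vehicle, for the 32 genes in S51 (left) and S51A cells (right); bars give the SE and the dashed line marks equal change. In S51 cells 31 genes lie below the line at total RNA changes of -0.02 to 0.28, and in S51A cells the same plot has total RNA changes of 0.20 to 0.38.

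Footprint levels of the 32 genes per kilobase of counted coding sequence covered a wide range. In S51 vehicle the mean RPF level per kilobase ran from 133 CPM for Rps27, 666 for Rps27l and 781 for Rps23 to 7042 for Rps16, 7942 for Rps21 and 9623 for Rps29, a 72.6-fold range. Only reads that map to 1 place were counted, so copies of near-identical sequence can lower a level. Named pseudogenes number 118 for the 32 genes. Rps27, Rps27l and Rps23 have 2, 0 and 2 of them, and Rps16, Rps21 and Rps29 have 2, 0 and 1. Their likeness to the genes was not measured, and their part in the range was not tested. Coding sequences ran from 171 nucleotides for Rps29 to 888 for Rpsa.

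The gene products that complete the subunit moved alike in direction. Fau, a ubiquitin-like fusion that gives the small subunit protein S30, had RPF log2 fold changes of -1.28 in S51 and -0.56 in S51A cells, and Rack1, a scaffold on the head, had -0.99 and -0.42. The response difference was -0.72 for Fau (adjusted p = 0.0009) and -0.57 for Rack1 (adjusted p = 0.0011). Of the 50 large subunit genes, 44 were tested in RPF, and 44 were lower in S51 RPF (16% of all genes) with a median of -0.98, and 39 in S51A RPF (11.4%) with a median of -0.43. Their response difference was lower in S51 cells for 28 in RPF (1.31%) and 17 in TE (1.5%), with medians of -0.56 and -0.45. In total RNA, 45 were tested, and 32 were higher with bortezomib in S51 (29.7%) and 44 in S51A cells (27.5%), with medians of 0.14 and 0.28. These traits were thus shared by both subunits. Of 18 tested genes of other mRNAs known for a TOP tract, Fau and Rack1 among them, 12 were lower in S51 RPF (16%), with a median of -0.97, from -2.43 for Pabpc1, the poly(A)-binding protein, to 0.13 for Eif3e, an initiation factor subunit. In S51A RPF 11 of them were lower (11.4%), with a median of -0.43.

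Genes that build or survey the small subunit were called in S51 RPF at shares near or under those of all genes. Of 47 assembly factors, 8 were lower (16% of all genes) and 4 higher (14.8%) with bortezomib, with a median of -0.02, from -0.94 for Imp3, of the small subunit processome, to 0.78 for Utp20. Their TE was lower for 2 (7.27% of all genes) and higher for 1 (2.38%) in S51 cells, with a median of 0.01. Under bortezomib 31 of the 47 had more footprints in S51 than in S51A cells (14.9% of all genes), and 41 of the 47 had more total RNA (32.4% of all genes). In vehicle 19 were lower in S51A than in S51 RPF (13.8% of all genes) and 41 in total RNA (32.4%). Of 20 genes of ribosome quality control at the small subunit, Rack1 included, 3 were lower (16% of all genes) and 4 higher (14.8%) in S51 RPF, from -1.59 for Usp21, a deubiquitinase, to 0.71 for Ascc3, a helicase that splits collided ribosomes, with a median of -0.09.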

How the data were processed

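The authors deposited raw counts per gene, 1 table of RPF and 1 of total RNA, with no normalization. Their methods name FastX for trimming, bowtie2 and mm10 for alignment, and plastid for counting, with RPF counted over the coding sequence without its first 15 and last 5 codons. Column names give footprint lengths of 20 to 23 or 26 to 32 nucleotides, a mapping quality of 50 and marked duplicates. An update of the series record exchanged the titles of the S51 bortezomib and S51A vehicle samples, so the numbers in their present titles conflict with those in the column names. Columns were assigned by a note to that record, which states that the data of each sample did not move, together with the study's own count table. Matching the numbers in the present titles would exchange these groups.

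Counts were tested in R 4.3.3 with edgeR 4.0.16 (TMM factors, filterByExpr with a minimum of 10 counts and a total of 15, glmQLFit with 1 coefficient per group, glmQLFTest, Benjamini-Hochberg adjustment), in 1 fit per kind of library over all 4 groups and in 1 fit over both kinds for TE. Genes tested numbered 9457 in RPF, 11708 in total RNA and 9424 for TE, and all 32 small subunit genes were among them. A call needs an adjusted p under 0.05 and, where stated, a change past a fold change of 1.5 (RPF and TE) or 2 (total RNA). CPM are on TMM library sizes. Scripts were tested on simulated data. DESeq2 1.42.0 and limma 3.58.1 served as alternatives.

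The 32 genes, the other lists and the tests were chosen with earlier results of these data known, so list counts are descriptions beside the share of all genes called, and no test was run over a list. Every small subunit gene could be named. Values by library are given for those at the ends of the RPF, TE, response difference and total RNA changes of S51 cells, for Rps27 and its paralogue, and for Rps6, Rps27a, Rps10, Rps20, Rps2, Rps3 and Rpsa for their known roles. Rps15a, Rps16, Rps18, Rps21, Rps23 and Rps25 are named outside that group. They are neighbours, ends of a range, genes with the tract at an annotated start, or genes whose call is stated. Other lists are named by their lowest and highest gene. Values of 2 of the 32 genes are not reported here by name, and both are included in all counts and medians.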

Additional observations from a re-analysis of the deposited data

Results flagged for a closer look

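Within groups of 4 libraries, 6 of 126 sets of CPM values held a library far from the other 3 by Dixon's test, where chance gives about 1 in 20. In RPF these were Rps4x in replicate 3 of S51A vehicle (2512 CPM, others 2626 to 2648), Rpsa in replicate 4 of S51A vehicle (1679 CPM, others 1811 to 1812), Rps27 in replicate 1 of S51A bortezomib (30.9 CPM, others 12.2 to 13.5), Rps27a in the same library (1422 CPM, others 1037 to 1042) and Rps4x in the same library (1989 CPM, others 1688 to 1721). In total RNA it was Rps20 in replicate 1 of S51A bortezomib (973 CPM, others 1014 to 1017). Of the 6, 4 thus fell in replicate 1 of S51A bortezomib, 3 in its RPF and 1 in its total RNA library.

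The response to bortezomib differed between the genotypes by the interaction test of edgeR with Benjamini-Hochberg adjustment for 19 of the 32 genes in RPF, 12 in TE and 24 in total RNA, each time with the S51 value below the S51A value. Among the genes described library by library, the RPF differences were -1.02 for Rps26, -1.01 for Rpsa, -1.005 for Rps19, -0.80 for Rps2, -0.68 for Rps10 and -0.55 for Rps3. The TE differences of these genes were -0.80 for Rps26, -0.94 for Rpsa, -0.85 for Rps19, -0.59 for Rps2, -0.52 for Rps10 and -0.47 for Rps3. The TE difference of Rps26 was not called without the RPF library of replicate 3 of S51 bortezomib or of replicate 4 of S51A vehicle (adjusted p = 0.059 and 0.051), nor with library sizes alone (adjusted p = 0.051).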

How the results depend on the processing

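Over the alternatives run, 415 counts of called genes stayed within 1.5 times of the reported count and 22 did not. Medians over the 32 genes kept their sign except in 2 comparisons. The total RNA median of S51 cells was -0.026 with library sizes alone, and the RPF median of S51A against S51 vehicle, near 0, ran from -0.063 without replicate 2 of S51 vehicle to 0.021 with the replicate block. In RPF, the count lower in S51A than in S51 vehicle was 4 without a filter, 1 with the replicate block and 0 with only the groups compared. In total RNA, 5 genes were higher in S51 bortezomib with library sizes alone, where the median was 0.18 in S51A cells, -0.20 for the response difference and -0.12 for S51 against S51A bortezomib. The count lower in the last comparison was 7 with RLE factors, 7 with DESeq2, 7 with only the groups compared and 21 with library sizes alone. The median TE change of S51 cells was -1.07 with library sizes alone. The construction of that setting shifts all genes together, by -0.16 in S51 and -0.13 in S51A total RNA. Without the 10 most counted genes of each library, the mean RPF share was 5.03, 2.35, 4.85 and 3.37% in S51 vehicle, S51 bortezomib, S51A vehicle and S51A bortezomib, and the total RNA share 3.55, 4.50, 3.61 and 4.15% in the same order. The genes left out of total RNA included 2 or 3 of the 32 in each S51 vehicle library and 0 or 1 in each S51 bortezomib library. The total RNA shares in this setting thus rest on unlike genes, and with all genes the S51 treatments overlapped.

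Leaving out each library in turn gave 31 to 31 lower genes in S51 RPF, 22 to 31 in S51A RPF, 0 to 6 for S51A against S51 vehicle (6 without replicate 3 of S51 vehicle), 25 to 31 for S51 against S51A bortezomib and 14 to 30 for the RPF response difference. In total RNA it gave 5 to 14 lower genes for S51 against S51A bortezomib (5 without replicate 1 of S51 bortezomib). For TE it gave 10 to 21 for the response difference, 22 to 31 for S51 against S51A bortezomib, and 0 to 5 higher for S51A against S51 vehicle (5 without the RPF library of replicate 3 of S51 vehicle).

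Changes near 0 turned sign for 3 genes. The TE change of Rps27l in S51A cells was 0.044 with library sizes alone and 0.025 without replicate 4 of S51A vehicle, and its RPF response difference ranged from -0.14 to 0.37 with 1 library left out. The TE response difference of Rps24 was 0.033, 0.11 and 0.0064 without replicate 1 or 3 of S51 vehicle or replicate 1 of S51A bortezomib. In S51 total RNA, Rps29 ranged from -0.030 to 0.012 and Rps27l from -0.020 to 0.035 with 1 library left out, and Rps27l was -0.14 with library sizes alone. The cause was not tested.

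Equal replicate numbers were not taken to pair the samples. The deviations of libraries with the same number correlated above 0.1 in 3 of 21 pairs in RPF and in 8 of 24 pairs in total RNA. The correlations ran from -0.16 to 0.26 in RPF (median 0.03) and from 0.002 to 0.19 in total RNA (median 0.09). A weak pairing is not excluded by these values. The replicate block gave 31 lower genes in S51 RPF, 31 in S51A RPF (28 without it) and 20 in the RPF response difference (19 without it). With the lysate as a block, TE fell for 31 genes in S51 and 29 in S51A cells, and the response difference was called for 11. RPF depth limits Rps27, with 6 to 205 counts per library.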

Other observations

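The total RNA change of the 32 genes was larger for longer coding sequences. Over the 32 genes, the rank correlation with coding length was 0.69 for the S51 response, 0.47 for the S51A response and 0.70 for the response difference, whereas for the RPF changes it was 0.17, 0.12 and 0.04. The points of each correlation share their libraries, and the pattern was seen in the same data that it describes.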
